A study of Mus musculus with 4 samples.

Results

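The mitochondrial ribosomal protein genes were followed as a set, taken as every protein coding gene of the deposited count table whose name begins with Mrpl or Mrps and a number. This rule found 77 genes among the 29224 in the table, 48 named for the large subunit and 29 named for the small subunit, and it used no measured value. RNA had been sequenced from astrocytes of the cerebral cortex of mice at postnatal day 5, isolated with magnetic beads that bind GLAST, the glutamate transporter recognised by the ACSA-1 antibody. Of the 4 libraries, 2 came from Ezh2 f/f mice, which carry floxed Ezh2 alleles and served as controls, and 2 came from Ezh2 cKO mice, in which a Cre recombinase driven by Aldh1l1 acts on the same floxed alleles. Recombination is therefore expected only where the Aldh1l1 driver is or has been active. Which cells of the bead fraction kept their Ezh2 was not tested. The labels do not say whether the libraries of a group came from separate animals, so each p-value measures only the spread between these libraries, which may be technical. The comparison asked how each gene of the mitochondrial ribosome differed between the genotypes, with the subunits kept apart.

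The mitochondrial ribosome translates the few messages that mitochondrial DNA itself encodes, all of them core subunits of the respiratory chain and the ATP synthase. Its RNAs come from mitochondrial DNA, whereas its proteins are encoded in the nucleus, translated in the cytosol and imported, so its make-up depends on both genomes. Many of these proteins have a bacterial counterpart and others are found only in mitochondria, and astrocytes, although strongly glycolytic, carry active mitochondria into their fine branches. EZH2 is the methyltransferase of Polycomb repressive complex 2, which places H3K27me3 on silenced genes.

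The libraries held between 16273308 and 17522152 counts, so that 3 counts corresponded to 0.171 to 0.184 CPM, counts per 1e+06 library counts, and 16793 genes passed the filter on low counts. Ezh2 itself stood at 25.4 and 20.8 CPM in the Ezh2 f/f libraries and at 12 and 9.47 in the Ezh2 cKO libraries (log2 fold change -1.11, SE 0.16, edgeR adjusted p = 3.26e-05). Fewer cells of a type and less RNA per cell cannot be told apart in such bulk samples. All 14 astrocyte markers listed were detected in every library, and their summed level was 670 to 725 CPM in Ezh2 f/f and 3195 to 3500 in Ezh2 cKO, with 12 of 14 higher. Aldh1l1, the source of the Cre driver, was not among the 12 (75.2 and 79.6 CPM against 72.6 and 66.7, log2 fold change -0.15, edgeR adjusted p = 0.175). The 14 neuronal markers summed to more than the astrocyte markers in every library, at 7489 to 7997 CPM in Ezh2 f/f and 12516 to 12848 in Ezh2 cKO, with 13 higher and 1 lower. The markers listed for neural progenitors, which include genes also found in young neurons such as Dcx and Tbr1, went from 1458 to 1508 CPM down to 438 to 479 (9 of 10 lower, 1 higher). Markers of cycling cells went from 233 to 248 down to 147 to 156 (8 of 12 lower). Markers of oligodendrocytes (6 of 6 higher; 67.9 to 83.5 against 716 to 837 CPM, with Mobp at 0 in 1 Ezh2 f/f library), their precursors (6 of 6 higher; 182 to 184 against 533 to 603) and microglia (8 of 8 higher; 80.3 to 85.0 against 239 to 275) were also higher in Ezh2 cKO. Endothelial (1 higher and 1 lower of 6; 224 to 231 against 208 to 244 CPM), mural (2 higher and 1 lower of 5; 201 to 214 against 302 to 337) and erythrocyte markers (3 higher of 5; 373 to 452 against 464 to 469) passed the test in fewer of their genes. The part of these differences in the results below was not tested.

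Sequence before the transcription start is shown for the members at the ends of the distribution, because the regulators best known for this gene family bind close to the start. The following runs are the 250 bases before the RefSeq start in GRCm38.p6, printed 5′ to 3′ on the strand of the gene, for the highest and lowest pair of each subunit that the promoter table held (it holds no entry for Mrps35). Capitals mark any of 4 motifs searched on both strands. These were a GC-rich motif for NRF1, CCGGAAG for the ETS family to which GABPA belongs, AANATGGCG for YY1 and GGGCGG for the SP family.
Mrpl14 (chr17:45686099-45686348, plus strand): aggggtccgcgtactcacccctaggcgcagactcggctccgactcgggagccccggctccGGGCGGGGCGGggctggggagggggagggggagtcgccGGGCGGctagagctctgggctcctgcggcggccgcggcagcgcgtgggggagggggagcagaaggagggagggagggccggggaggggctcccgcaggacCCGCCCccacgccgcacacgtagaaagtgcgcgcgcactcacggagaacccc
Mrpl36 (chr13:73330759-73331008, plus strand): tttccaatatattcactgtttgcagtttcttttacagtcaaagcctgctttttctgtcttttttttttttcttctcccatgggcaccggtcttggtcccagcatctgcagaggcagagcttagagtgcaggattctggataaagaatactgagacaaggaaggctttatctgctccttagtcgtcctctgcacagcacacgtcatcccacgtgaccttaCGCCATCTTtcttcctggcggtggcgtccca
Mrpl2 (chr17:46645971-46646220, plus strand, first of its listed starts): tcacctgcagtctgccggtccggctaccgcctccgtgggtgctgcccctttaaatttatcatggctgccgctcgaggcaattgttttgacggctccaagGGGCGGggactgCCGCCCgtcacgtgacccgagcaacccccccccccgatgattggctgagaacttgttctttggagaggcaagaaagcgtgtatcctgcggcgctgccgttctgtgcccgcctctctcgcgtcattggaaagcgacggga
Mrpl22 (chr11:58171414-58171663, plus strand): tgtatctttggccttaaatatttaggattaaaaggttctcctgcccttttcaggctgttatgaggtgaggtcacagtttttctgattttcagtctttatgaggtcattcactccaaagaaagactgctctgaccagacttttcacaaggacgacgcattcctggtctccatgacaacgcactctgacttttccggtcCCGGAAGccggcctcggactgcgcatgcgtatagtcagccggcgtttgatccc
Mrps25 (chr6:92184024-92184273, minus strand): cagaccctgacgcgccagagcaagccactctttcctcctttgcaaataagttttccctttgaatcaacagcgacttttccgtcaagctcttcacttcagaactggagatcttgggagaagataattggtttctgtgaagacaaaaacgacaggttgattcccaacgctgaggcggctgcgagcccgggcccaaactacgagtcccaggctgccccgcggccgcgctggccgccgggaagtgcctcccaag
Mrps15 (chr4:126046678-126046927, plus strand): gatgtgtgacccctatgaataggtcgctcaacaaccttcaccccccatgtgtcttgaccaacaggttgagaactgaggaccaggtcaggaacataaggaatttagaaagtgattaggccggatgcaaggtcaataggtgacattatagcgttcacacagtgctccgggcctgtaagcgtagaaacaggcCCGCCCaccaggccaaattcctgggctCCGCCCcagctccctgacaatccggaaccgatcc
Mrps30 (chr13:118387253-118387502, minus strand): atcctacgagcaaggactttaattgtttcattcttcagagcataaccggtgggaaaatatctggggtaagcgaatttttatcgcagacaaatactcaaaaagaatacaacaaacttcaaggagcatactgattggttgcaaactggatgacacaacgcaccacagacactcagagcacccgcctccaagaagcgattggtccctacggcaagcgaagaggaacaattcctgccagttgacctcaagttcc
Mrps18c (chr5:100798509-100798758, plus strand): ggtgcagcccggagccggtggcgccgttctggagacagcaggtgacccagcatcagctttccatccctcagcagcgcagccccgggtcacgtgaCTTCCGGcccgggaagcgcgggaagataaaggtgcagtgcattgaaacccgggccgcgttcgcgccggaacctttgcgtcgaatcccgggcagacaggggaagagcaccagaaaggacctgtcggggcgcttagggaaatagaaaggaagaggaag
The pair with the highest fold changes in the large subunit looked unlike each other. Mrpl14 held 4 GGGCGG matches here, 2 of them overlapping by a base, and Mrpl36 held a single YY1 match 31 bases before its start. In the 50 bases after its start, not printed, Mrpl14 also held an NRF1 match at 5 bases and a GGGCGG match at 23 bases. Mrpl2, the lowest, held 2 GGGCGG matches, and Mrpl22 held a CCGGAAG match 53 bases before its start. Mrps25, the member with the highest fold change, held no match in this window or in the 50 bases after the start. Mrps15 held 2 GGGCGG matches. Mrps30 held its only match, to the YY1 letters, 16 bases after the start, and Mrps18c held a CCGGAAG match and a GGGCGG match that begins on the last base printed.

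All 77 members passed the filter on low counts and were tested. In edgeR's quasi-likelihood fit across all genes, 29 members were higher in Ezh2 cKO and 26 were lower at an adjusted p under 0.05, and 22 did not pass. Together 71.4% of the members were called, against 68.4% of all tested genes (34.7% higher and 33.6% lower), so the share of members called was near the background. The large subunit had 19 members higher and 15 lower, and its median log2 fold change was -0.03. Its count of lower members was lowest without Ezh2 cKO replicate 2, a fit that leaves 1 library in that group. The small subunit had 10 members higher and 11 lower, with a median of -0.04, and its lower count fell to 5 without the same library. Over all tested genes the median was 0.02. Both subunits were thus split between the directions, with neither direction dominating.

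**Figure D1:**
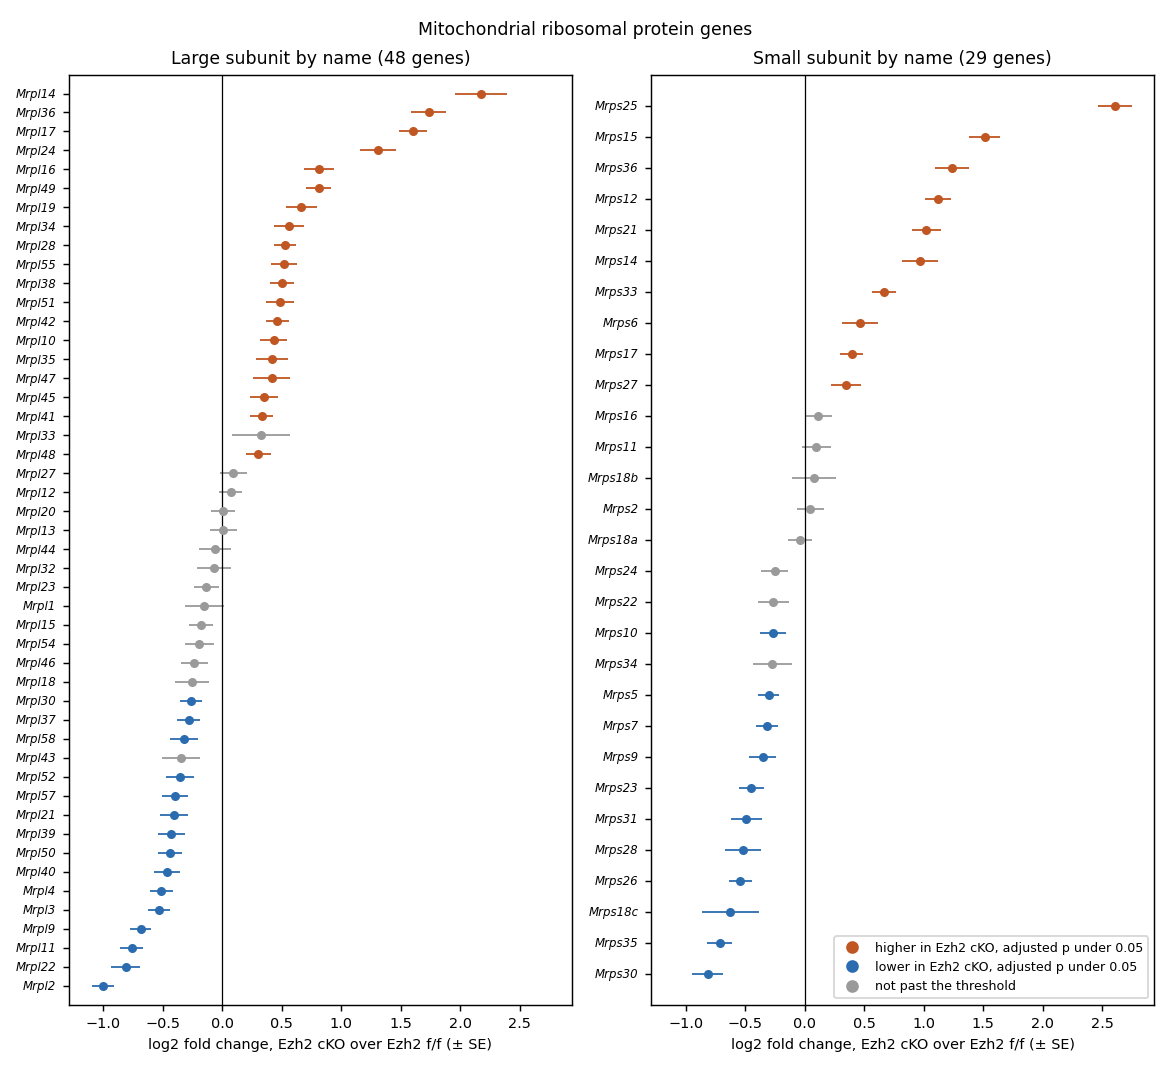
Log2 fold change (x axis, Ezh2 cKO over Ezh2 f/f) with its SE for each of the 77 genes (y axis), in the 48 genes named for the large subunit and the 29 named for the small subunit; colour gives the edgeR call. The distribution is drawn out to the right, from -1.0 for Mrpl2 to 2.60 for Mrps25.

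A number of the smaller changes lost the call when a library was left out, although none of the 55 called members changed sign under any alternative tried. A fit with 1 library left in a group also has less power. Among the members that lost the call, some log2 fold changes hardly moved and others shrank. A lost call therefore does not by itself mean that the change came from the library left out. Without Ezh2 cKO replicate 1 the call was lost by 15 members, with log2 fold changes of 0.37 for Mrpl10, -0.30 for Mrpl30, 0.43 for Mrpl35, -0.39 for Mrpl39, 0.25 for Mrpl41, 0.31 for Mrpl47, 0.20 for Mrpl48, 0.40 for Mrpl51, -0.37 for Mrpl52, -0.39 for Mrpl58, -0.30 for Mrps5, 0.46 for Mrps6, -0.25 for Mrps10, -0.71 for Mrps18c and 0.27 for Mrps27. Without Ezh2 cKO replicate 2 it was also lost by 15, at -0.32 for Mrpl21, -0.23 for Mrpl30, 0.41 for Mrpl35, -0.22 for Mrpl37, 0.29 for Mrpl45, -0.33 for Mrpl52, -0.32 for Mrpl57, -0.25 for Mrpl58, -0.30 for Mrps5, 0.47 for Mrps6, -0.29 for Mrps7, -0.24 for Mrps9, -0.28 for Mrps10, -0.54 for Mrps18c and -0.37 for Mrps28. Of these genes, only Mrps18c and Mrps28 are among the 5 lowest fold changes of their subunit, and none is among the 5 highest. Without Ezh2 f/f replicate 1 it was lost by 6, at 0.32 for Mrpl35, 0.25 for Mrpl45, 0.21 for Mrpl48, -0.24 for Mrpl52, 0.39 for Mrps6 and -0.23 for Mrps10, and Mrpl18 gained it (-0.39). Without Ezh2 f/f replicate 2 it was lost by 4, at 0.33 for Mrpl47, -0.20 for Mrpl58, -0.62 for Mrps18c and 0.30 for Mrps27. Mrps24 gained the call without Ezh2 cKO replicate 1 (-0.39) and without Ezh2 f/f replicate 2 (-0.38). The 9 members that were at least 2-fold higher, and Mrpl2, kept their calls throughout.

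The sizes of the changes were uneven between directions. A change of at least 2-fold with the same adjusted p was seen for 9 higher members, 4 in the large and 5 in the small subunit, and for 1 lower member, Mrpl2. Over all tested genes these shares were 19% higher and 14% lower, so that 13.0% of the members passed against 33% of all genes. The log2 fold changes of the members had an SD of 0.71 and a median size of 0.42, beside 1.07 and 0.61 for the 9619 protein coding genes in the same range of mean CPM. The CPM values of the groups did not overlap for 31 members that were higher and 35 that were lower (all genes: 42.8% and 41.5%, together 84.3%), and overlapped for 11.

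Whether the summed level of the set differed depended on the scale. The large subunit genes added up to 1795 and 1866 CPM in the Ezh2 f/f libraries and to 1833 and 1767 CPM in the Ezh2 cKO libraries. The small subunit genes added up to 920 and 934 CPM in Ezh2 f/f and to 976 and 925 CPM in Ezh2 cKO. On this scale, which uses TMM-scaled library sizes, the groups overlapped for both subunits. On the FPKM scale they did not: the large subunit genes summed to 849 and 870.5 against 929.6 and 905 in Ezh2 cKO, and the small subunit genes to 370.3 and 374 against 461 and 437. The members' share of all counts was likewise higher in Ezh2 cKO without overlap, at 0.286% and 0.280% against 0.265% and 0.270%. These sums were not tested, since 2 libraries against 2 are too few for an exact test to reach 0.05. The ratio of the CPM sums, large over small, was 1.95 and 2.00 in Ezh2 f/f against 1.88 and 1.91 in Ezh2 cKO, without overlap.

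Per length, the members spanned a wide range. On the deposited FPKM scale, the median large subunit gene stood at 13.7 and 14.6 in Ezh2 f/f against 16.1 and 15.3 in Ezh2 cKO, and the median small subunit gene at 8.64 and 8.36 and at 10.4 and 10.8. Large subunit genes lay closer together in Ezh2 cKO, where the SD of log2 FPKM across them was 1.33 and 1.29, than in Ezh2 f/f, where it was 1.5 and 1.49. Across the small subunit genes the same SD was 1.232 and 1.262 in Ezh2 f/f against 1.283 and 1.264 in Ezh2 cKO, a difference between the nearest libraries of the groups far smaller than that within a group. These SDs were not tested. By the mean FPKM over all 4 libraries, the highest large subunit gene was Mrpl12, whose protein forms the stalk that receives translation factors, at 61.1 and 65.4 FPKM in Ezh2 f/f against 73.5 and 67.2 in Ezh2 cKO. Mrpl41 followed at 50.6 and 50.4 FPKM and 70.3 and 64.3, and Mrpl34 at 31.8 and 37.9 and 55.8 and 53.0. Within Ezh2 f/f alone, Mrpl2 came after Mrpl12, at 56.2 and 55.3 FPKM against 28.8 and 30.2 in Ezh2 cKO. Mrpl41 and Mrpl34 were also higher in Ezh2 cKO by the edgeR test on counts (log2 fold changes 0.33 and 0.56, adjusted p = 0.00718 and 0.00127), whereas Mrpl12 was not (0.07, SE 0.10, adjusted p = 0.538). In the small subunit the highest gene by the same mean was Mrps24 at 50.5 and 42.3 FPKM in Ezh2 f/f against 44.5 and 38 in Ezh2 cKO, whose groups overlapped. Mrps21 stood at 24.4 and 27.0 FPKM against 58.2 and 52.2, and Mrps23 at 35.1 and 42.1 against 30.3 and 29.5, so the order of these 3 differed between the genotypes. At the other end lay Mrpl33, at 0.405 and 0.419 FPKM in Ezh2 f/f against 0.543 and 0.548 in Ezh2 cKO. Its FPKM were scaled to an implied length of 7330 bases, within a deposited span of 67450 bases.

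**Figure D2:**
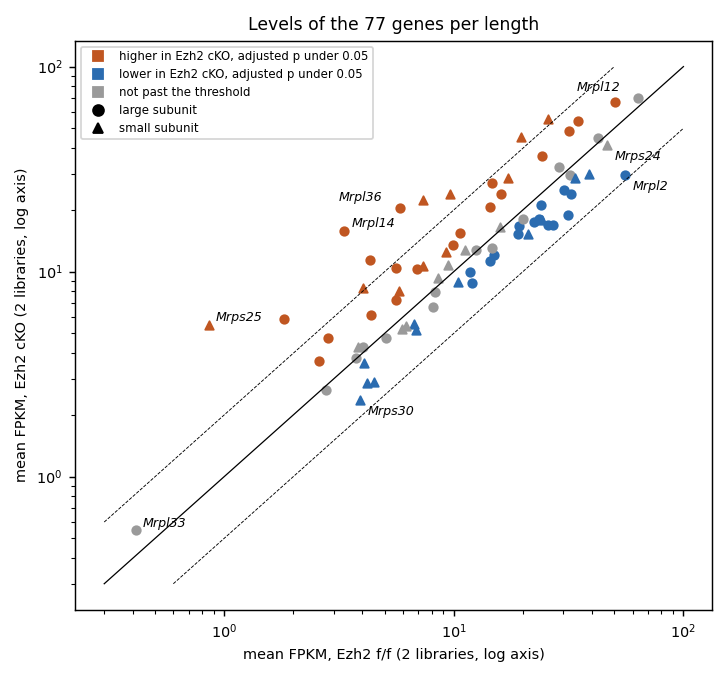
Mean FPKM of each member in Ezh2 f/f (x axis) and Ezh2 cKO (y axis), 2 libraries each, both axes logarithmic; circles are large and triangles small subunit genes, the solid line marks equality and the dashed lines a 2-fold difference. Mrps25 and Mrpl14 lie farthest above the line, and Mrpl33 is the lowest gene on both axes.

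The large subunit members with the highest fold changes were Mrpl14, Mrpl36, Mrpl17, Mrpl24 and Mrpl16, all of them proteins with a bacterial counterpart. Mrpl14 (deposited position chromosome 17, 45997248 to 46009421), which lies on the face that meets the small subunit, was at 2.58 and 3.95 CPM in Ezh2 f/f against 15.8 and 13.4 in Ezh2 cKO. Mrpl36, one of the smallest ribosomal proteins, was at 7.20 and 6.68 CPM against 22.6 and 23.5. Every Ezh2 cKO value lay well above every Ezh2 f/f value in both. The log2 fold changes were 2.17 (SE 0.22, edgeR adjusted p = 7.64e-07) for Mrpl14 and 1.73 (SE 0.15, adjusted p = 2.02e-07) for Mrpl36. Mrpl17, which sits beside the opening through which the new peptide leaves, was at 14.9 and 13.7 CPM against 42.8 and 44.2, and Mrpl24, at the same side, at 8.96 and 11.2 against 26 and 23.8. Their log2 fold changes were 1.6 (SE 0.12, edgeR adjusted p = 3.76e-08) and 1.31 (SE 0.15, adjusted p = 3.61e-06). Mrpl16, which contacts the transfer RNA near the peptidyl transferase centre, changed less, from 19.4 and 17.0 CPM to 33.0 and 31.1 (log2 fold change 0.81, SE 0.12, edgeR adjusted p = 5.16e-05). The groups did not overlap for any of the 5.

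The lowest fold changes in the large subunit were those of Mrpl2, Mrpl22, Mrpl11, Mrpl9 and Mrpl3, which again have bacterial counterparts. Mrpl2 (deposited position chromosome 17, 46957155 to 46961065), whose bacterial relative supports the peptidyl transferase centre, was at 67.5 and 67.0 CPM in Ezh2 f/f against 33.1 and 34.0 in Ezh2 cKO. The log2 fold change was -1.0 (SE 0.09, edgeR adjusted p = 3.86e-07), and the libraries of a group lay within about a CPM of each other. Mrpl22, which lines the peptide exit tunnel, was at 32.7 and 30.6 CPM against 18.5 and 17.5 (log2 fold change -0.81, SE 0.12, adjusted p = 3.91e-05). Mrpl11, at the base of the factor-binding stalk, was at 87.1 and 93.4 CPM against 52.6 and 53.7 (log2 fold change -0.76, SE 0.09, adjusted p = 6.69e-06). Mrpl9 went from 69.8 and 73.4 CPM to 43.4 and 45.5 (-0.69), and Mrpl3 from 81.7 and 82.9 to 57.1 and 56.9 (-0.53). In all 5 genes both Ezh2 cKO libraries lay below both Ezh2 f/f libraries.

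Taken by position in the large subunit, no group moved as one. The stalks had 1 of 4 members higher and 1 lower: Mrpl10 was at 26.7 and 23.9 CPM in Ezh2 f/f against 35.5 and 32.8 in Ezh2 cKO (log2 fold change 0.43), beside the fall of Mrpl11 above. Mrpl12 and Mrpl1 of the same stalks did not pass, Mrpl1 being at 12.8 and 11.7 CPM against 10.0 and 12, with overlapping groups. The central protuberance, the crown that faces the small subunit's head, had 2 of 6 members higher and 1 lower. There Mrpl38 was at 39.5 and 44.5 CPM against 60.2 and 58.7 (0.50) and Mrpl48 at 44.1 and 50 against 62 and 54.0 (0.30), while Mrpl40 was at 40.0 and 45.4 against 30.0 and 31.8 (-0.47). Its other members, Mrpl18 (19.1 and 23.2 CPM against 17.3 and 18.1), Mrpl27 (29.7 and 28.7 against 33.0 and 29.3) and Mrpl46 (28.8 and 29.8 against 24.2 and 25.6), did not pass the test. The side around the exit tunnel had 4 of 8 members higher and 2 lower. Besides Mrpl17, Mrpl24 and Mrpl22, it holds Mrpl45, which anchors the ribosome at the inner membrane, at 24.8 and 28.5 CPM against 32.5 and 35.4 (0.35), and Mrpl47 at 12.4 and 11.2 against 16.8 and 14.7 (0.42). Mrpl39 of this side was lower, at 34.8 and 40.3 CPM against 27.1 and 28.7 (-0.43), whereas Mrpl23 (41.9 and 41.4 against 40.3 and 35.6) and Mrpl44 (22.1 and 20.3 against 18.9 and 21.8) did not pass.

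The 18 large subunit proteins found only in mitochondria had 7 members higher and 7 lower, none of them by 2-fold, with log2 fold changes between -0.47 and 0.81. The 30 with a bacterial counterpart had 12 higher and 8 lower, between -1.0 and 2.17. They held all 5 large subunit genes past 2-fold, a share of 16.7% beside 33% of all tested genes. Mrpl49 was the highest of the mitochondria-specific genes, at 26.9 and 29.6 CPM in Ezh2 f/f against 49.5 and 49.5 in Ezh2 cKO (log2 fold change 0.81, SE 0.10, edgeR adjusted p = 9.24e-06). Among the lower ones, Mrpl58, a peptidyl-tRNA hydrolase that frees stalled ribosomes and is built into the large subunit, was at 36.8 and 44.3 CPM against 33.9 and 30.8 (-0.32), and Mrpl57 was at 48.2 and 43.0 against 36.5 and 32.6 (-0.40). Mrpl37 was at 88.8 and 87.9 CPM against 75.9 and 69.4 (-0.28), and Mrpl52 at 37.3 and 31.8 against 27.3 and 26.7 (-0.36). These lower genes moved by far less than the 2-fold of Mrpl2. Mrpl43 (12.1 and 13.3 CPM against 10.3 and 9.64) and Mrpl54 (26.1 and 28.4 against 24.8 and 22.7) fell short of the threshold although their groups did not overlap. Mrpl42 (38.8 and 41.6 CPM against 54.8 and 56.0, 0.46) and Mrpl51 (26.6 and 31.1 against 42.5 and 38.1, 0.48) were higher, and Mrpl50 (46.8 and 50.7 against 36.8 and 35.3, -0.44) was lower.

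Several further large subunit genes sat close to the threshold or to no difference. Mrpl30 was at 79.7 and 79.2 CPM in Ezh2 f/f against 67.8 and 64.3 in Ezh2 cKO (-0.27, edgeR adjusted p = 0.0204), and Mrpl21 at 36.9 and 42.2 against 31.5 and 28.1 (-0.41). Mrpl35 was at 17.3 and 20.0 CPM against 24.7 and 25.1 (0.42). Clearer differences were seen for Mrpl19 (16 and 15.8 CPM against 24.3 and 26.2, 0.66), Mrpl28 (46.6 and 43.8 against 66.8 and 63.7, 0.53), Mrpl55 (25.2 and 25.8 against 36.8 and 36.2, 0.52) and, downwards, Mrpl4 (87.5 and 86.9 against 64.2 and 58.1, -0.51). Some genes had overlapping groups and log2 fold changes no larger than their SE: Mrpl13 at 31.7 and 34.3 CPM against 30.9 and 35.4, Mrpl20 at 71.3 and 73.8 against 77.2 and 68.5, Mrpl32 at 17.9 and 20.7 against 17.2 and 19.6, and Mrpl44 as given above. Mrpl15 was at 42.3 and 46.1 CPM against 37.8 and 40.2, without overlap, and did not pass (-0.18, edgeR adjusted p = 0.129). Mrpl33, at 3.04 and 3.18 CPM against 3.91 and 3.87, had the widest SE of the subunit (0.24) and did not pass.

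In the small subunit the highest fold changes were those of Mrps25, Mrps15, Mrps36, Mrps12 and Mrps21. Mrps25 (deposited position chromosome 6, 92146506 to 92161014) is a mitochondria-specific protein in which human variants cause mitochondrial disease. It was at 5.80 and 5.79 CPM in Ezh2 f/f against 34.7 and 35.8 in Ezh2 cKO, a 6.08-fold difference and the widest of all members (log2 fold change 2.60, SE 0.14, edgeR adjusted p = 2.23e-09). On the log2(FPKM + 1) scale, which understates changes of low genes, the same gene differed by 1.81. Mrps15 was at 12.1 and 13.6 CPM against 38.7 and 34.6 (1.51, SE 0.13, edgeR adjusted p = 1.86e-07). Mrps12, whose bacterial relative takes part in reading the codon, was at 20.6 and 21.7 CPM against 48.0 and 43.6 (1.12, SE 0.11, adjusted p = 7.60e-07), and Mrps21 at 18.5 and 20.7 against 42.3 and 37.1 (1.02, SE 0.12, adjusted p = 4.35e-06). Mrps36, which carries the ribosomal name but has also been assigned to the 2-oxoglutarate dehydrogenase complex, was at 11.5 and 13.6 CPM against 27.5 and 31.8 (1.24, SE 0.14, adjusted p = 3.28e-06). All 5 were at least doubled, and no Ezh2 cKO value reached down to an Ezh2 f/f value.

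The lowest fold changes of the small subunit were smaller in size. Mrps30, named for the small subunit but placed in the large one by structures, was at 25.9 and 27.9 CPM in Ezh2 f/f against 15.6 and 14.9 in Ezh2 cKO (log2 fold change -0.82, SE 0.13, edgeR adjusted p = 6.69e-05). Mrps35 was at 40.9 and 38.9 CPM against 23.9 and 24.6 (-0.72, SE 0.11, adjusted p = 4.35e-05), and Mrps26 at 93.5 and 95.5 against 67.8 and 62 (-0.54, SE 0.10, adjusted p = 0.000188). Both are mitochondria-specific. Mrps28 was at 20.4 and 18.8 CPM against 15.1 and 12.1 (-0.52, SE 0.15, adjusted p = 0.00728). Mrps18c, expressed at only 4.57 and 4.71 CPM against 3.18 and 2.83, carried the largest uncertainty of the called members (-0.63, SE 0.24, adjusted p = 0.0316).

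**Figure D3:**
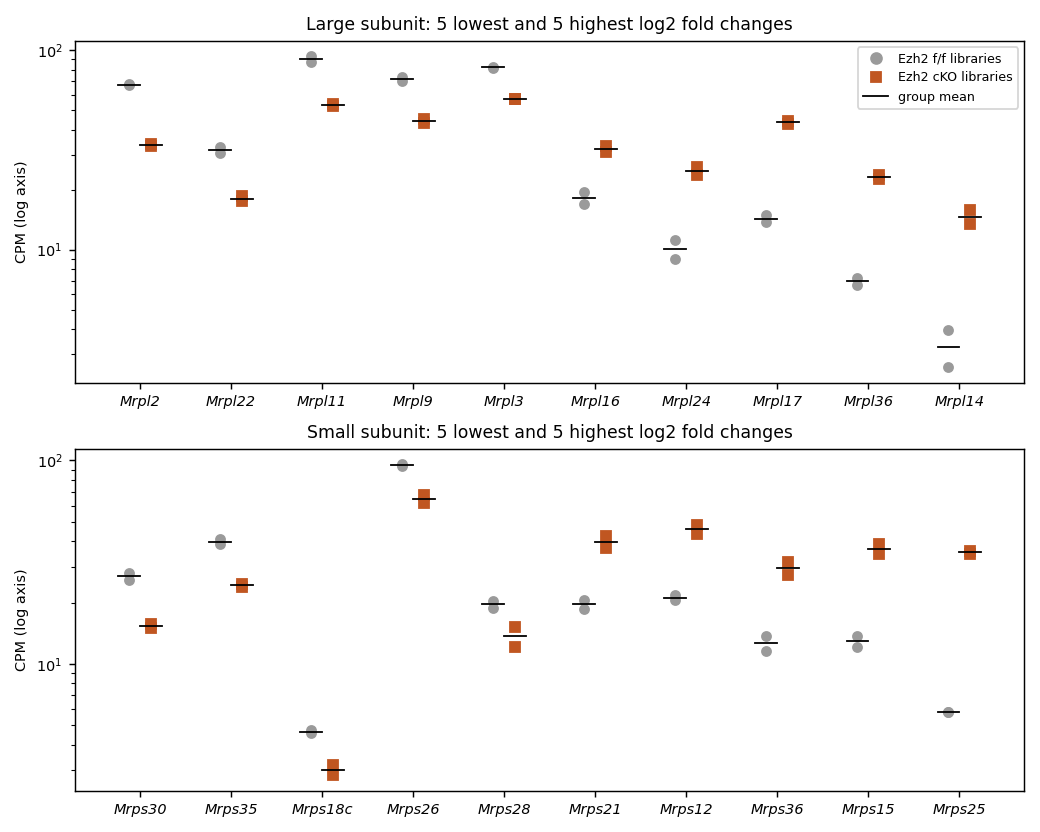
CPM in each library (y axis, logarithmic) of the 5 members with the lowest and the 5 with the highest log2 fold change in each subunit (x axis); grey circles are the 2 Ezh2 f/f libraries, orange squares the 2 Ezh2 cKO libraries and bars the group means. The groups are apart in all 20 genes, least so in Mrps28, where the nearest values are 18.8 and 15.1 CPM.

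The Mrps18 paralogues, which derive from one bacterial protein, differed from each other. Mrps18a, which structures place in the large subunit, was at 56.0 and 65.2 CPM in Ezh2 f/f against 60.3 and 57.5 in Ezh2 cKO, and Mrps18b was at 8.84 and 7.64 against 9.59 and 7.79. Neither passed the test (log2 fold changes -0.04 and 0.08), and their groups overlapped, whereas Mrps18c was lower as given above. With Mrps30 and Mrps18a counted in the large subunit and Mrps36 left out, the large subunit had 19 members higher and 16 lower, and the small subunit 9 higher and 10 lower.

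The remaining small subunit genes were divided in the same way. Mrps14 was at 15.2 and 11.6 CPM in Ezh2 f/f against 26.2 and 26.4 in Ezh2 cKO (0.97, SE 0.15, edgeR adjusted p = 4.94e-05), and Mrps33 at 29.9 and 29.0 against 47.9 and 45.4 (0.66). Mrps6 was at 11 and 12.2 CPM against 16 and 15.9 (0.46), and Mrps27, a pentatricopeptide repeat protein, at 20.4 and 19.5 against 26.8 and 24.1 (0.35). Mrps17 was at 38.5 and 38.8 CPM against 52.7 and 48.9 (0.40), and Mrps31 was lower, at 23.9 and 22.5 against 16 and 17.0 (-0.49). On the lower side stood Mrps7 (70.0 and 73.6 CPM against 58.5 and 56.9, -0.32), Mrps9 (40.1 and 39.5 against 33.6 and 28.7, -0.35), Mrps5 (71.5 and 69.3 against 56.9 and 57.1, -0.30) and Mrps10 (34.8 and 33.2 against 28.0 and 28.5, -0.27). Mrps10 passed by the narrowest margin of all called members (edgeR adjusted p = 0.0402). Mrps24 (76.0 and 64.3 CPM against 64.1 and 53.6, adjusted p = 0.0600) and Mrps22 (23.2 and 25.5 against 20.9 and 19.7, 0.0799) fell just short of it. Mrps2 (25.9 and 25.3 CPM against 25.6 and 27.3), Mrps11 (24.4 and 26 against 28.9 and 24.9) and Mrps16 (27.6 and 28.3 against 29.3 and 31.2) were near equal between the groups. The 16 genes with a bacterial counterpart had 6 members higher and 6 lower, and the 10 mitochondria-specific ones 3 higher and 4 lower.

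Of 12 members in which human variants are known to cause mitochondrial disease, 2 were higher (Mrps25 and Mrps14) and 4 were lower. The lower ones were Mrpl3, Mrps28 and Mrps7, given above, and Mrps23, at 56.2 and 68.0 CPM in Ezh2 f/f against 46.5 and 44.3 in Ezh2 cKO (-0.45). The other 6 did not pass. Among them was Mrps34, whose deposited span lies wholly within that of Mapk8ip3 on the other strand; it was at 12.9 and 13.3 CPM against 11.8 and 9.93.

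The other genes of the pathway were read from the same fit. Of 5 further mitoribosome subunits that lack the Mrp name, 1 was lower and none higher: Dap3, a GTP-binding protein of the small subunit, was at 122 and 128 CPM in Ezh2 f/f against 95.9 and 102 in Ezh2 cKO (log2 fold change -0.34, SE 0.09). Of 27 assembly factors, 12 were higher and 11 lower. The RNA helicase Dhx30 (260 and 254 CPM against 128 and 118, -1.06) and Mettl17 (77.3 and 79.3 against 38.4 and 37.3, -1.05) were the lowest. The rRNA methyltransferase Mettl15 (0.527 and 0.382 CPM against 2.89 and 2.08, 2.43) and Fastkd2 (4.8 and 3.95 against 8.85 and 9.29, 1.05) were the highest. Assembly factors were thus spread on both sides, like the ribosomal proteins themselves.

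Of 18 translation factors 16 were tested, with 9 higher and 2 lower. The lower ones were Oxa1l, the insertase that receives new peptides at the inner membrane (172 and 172 CPM against 87.2 and 84.0, -1.01), and Mtfmt, which formylates the initiator transfer RNA (28.3 and 26.1 against 15 and 16.6, -0.78). The highest were 2810006K23Rik, an older name of the release factor family member Mtrfr (2.52 and 1.27 CPM against 15.1 and 13.2, 2.89), and the recycling factor Mrrf (6.91 and 6.49 against 19.6 and 19.0, 1.53). Of 22 mitochondrial aminoacyl-tRNA synthetases, 8 were higher and 6 lower, from Kars, which also serves the cytosol (181 and 191 CPM against 115 and 111, -0.72) and Hars2 (52.2 and 55.7 against 34.3 and 31.9, -0.70) to Nars2 (5.33 and 4.26 against 8.96 and 10.9, 1.04) and Cars2 (8.31 and 8.66 against 19.1 and 19.2, 1.17).

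Among the nuclear regulators more genes were lower than higher, whereas most genes that maintain mitochondrial DNA were not called. Of 12 regulators, 7 were lower and 2 higher (75% called, beside 68.4% of all tested genes). The cofactor Hcfc1 (354 and 330 CPM against 108 and 101, -1.70) and Gabpb1, a subunit of the ETS family complex that binds many mitochondrial gene promoters (52.9 and 55.5 against 17.7 and 16.9, -1.65), were lowest, and Ppargc1a (8.08 and 8.91 against 12.1 and 13.6, 0.60) and Esrra (45.4 and 39.6 against 55.5 and 53.7, 0.36) were higher. Of 10 genes of mitochondrial DNA transcription and maintenance, 3 were lower, none was higher and 7 were not called. The share called was 30%, and over all tested genes 68.4% were called and 33.6% were lower. The lower ones were led by the helicase Twnk (37.9 and 31.7 CPM against 19.5 and 16.3, -0.96) and the packaging factor Tfam (50.1 and 46.6 against 30.6 and 27.9, -0.72). The RNA partners of the mitochondrial ribosomal proteins were both higher. The small subunit rRNA gene mt-Rnr1 rose from 2041 and 2769 counts to 16837 and 17889 (log2 fold change 2.75, SE 0.14), and the large subunit rRNA gene mt-Rnr2 had 4044 and 4356 against 21633 and 22466 (2.30, SE 0.09). The paper's methods do not say whether or how rRNA was removed before sequencing, and the part of that step in these rRNA counts was not tested. Of 12 tested protein genes of mitochondrial DNA, 9 were higher and none lower.

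Set beside 2 other families of related function, the mitochondrial ribosomal proteins were the ones divided between the directions. All tested genes were divided in the same way (34.7% higher and 33.6% lower), so the even split is not particular to the members. Of 75 tested cytosolic ribosomal protein genes, 70 were lower and none was higher, with a median log2 fold change of -0.84. Of 92 tested nuclear genes of oxidative phosphorylation, 60 were higher and 5 lower, with a median of 0.35. Both subunits of the mitochondrial ribosome lay between them, at -0.03 and -0.04. The differences between these families are a description and were not tested.

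**Figure D4:**
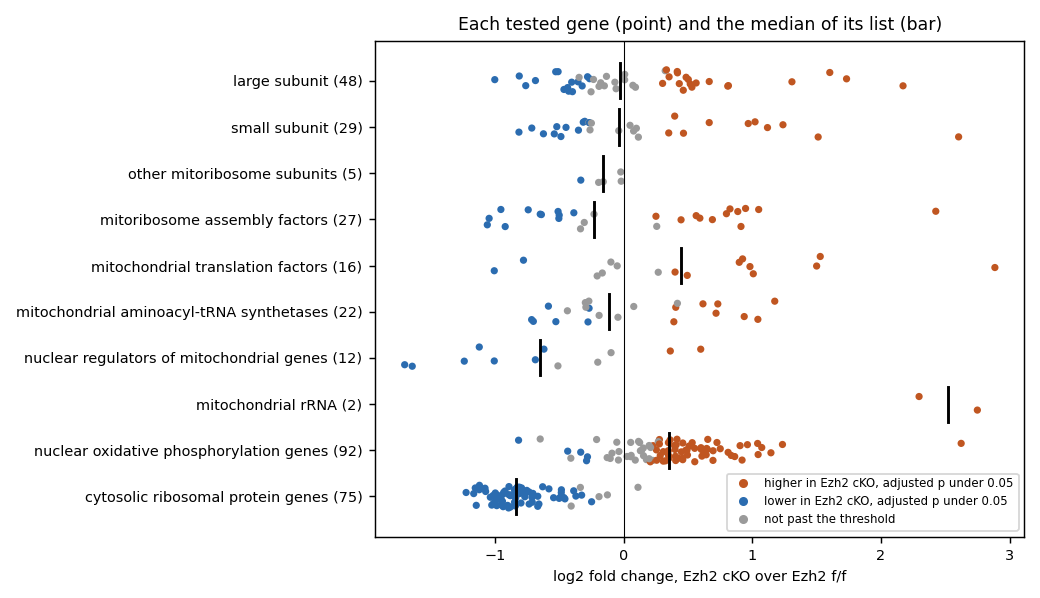
Log2 fold change (x axis, Ezh2 cKO over Ezh2 f/f) of every tested gene in each list (y axis, number tested in brackets), coloured by the edgeR call, with the list's median as a bar. Both mitochondrial ribosomal subunits straddle 0, with medians of -0.03 and -0.04, while cytosolic ribosomal protein genes lie mostly to the left (median -0.84) and oxidative phosphorylation genes mostly to the right (median 0.35).

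Genes of mitochondrial proteins often face a neighbour across a shared start region, so these neighbours were set beside the members. By the deposited coordinates, 20 members share a start region with a gene on the other strand that points away within 1000 bases without overlapping the member. For 18 this neighbour is protein coding. Pairs that overlap at their starts were not counted. Mrpl46 and Mrps11, both members, overlap by 413 bases on opposite strands and are therefore not among the pairs. Both genes of a pair were called for 9 of the 18, 3 pairs in the same direction (33.3%) and 6 in opposite directions, beside 179 of 321 such pairs in the same direction over all genes (55.8%). The closest values were those of Mrpl10 and Lrrc46 (log2 fold changes 0.43 and 0.31), of which Lrrc46 was at 0.937 and 1.15 CPM against 1.64 and 0.923, and of Mrpl54 and Apba3 (-0.19 and 0.03). The widest gap was between Mrps21 and the long noncoding RNA C920021L13Rik, which start 3 bases apart: the member was higher (1.02) and its neighbour, at 3.45 and 3.44 CPM against 1.25 and 1.10, was lower (-1.55). Mrpl37 and Cyb5rl, 120 bases apart, differed in the same manner, the member being lower (-0.28) and Cyb5rl, at 2.17 and 2.29 CPM against 9.08 and 6.35, higher (1.79). Mrpl49 (0.81) faces Fau, which encodes a cytosolic ribosomal protein and was lower at 464 and 472 CPM against 266 and 238 (-0.89). Across the 18 pairs the log2 fold changes had a Pearson r of -0.13 and a Spearman rho of -0.02, as a description of pairs measured in the same libraries.

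**Figure D5:**
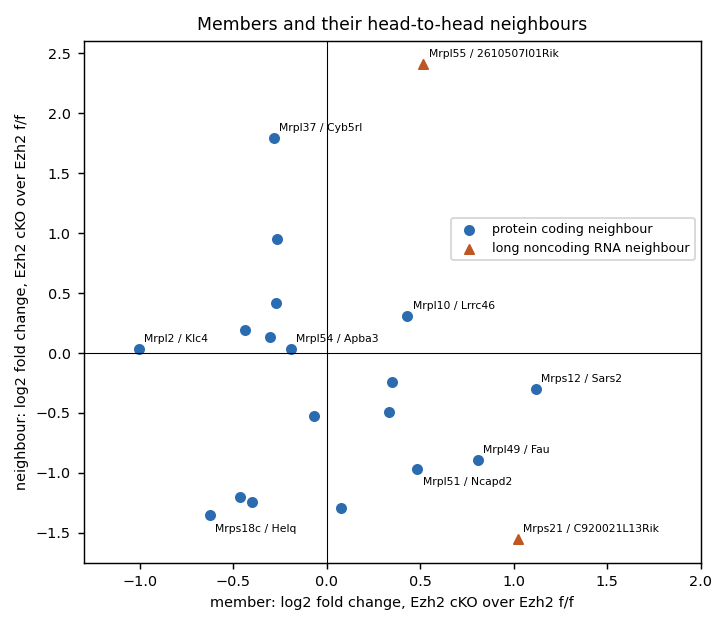
Log2 fold change of each member with a head-to-head neighbour (x axis) and of that neighbour (y axis), both Ezh2 cKO over Ezh2 f/f; circles are the 18 protein coding neighbours and triangles the 2 long noncoding RNAs. The points fall on either side of both axes, with Mrps21 / C920021L13Rik (1.02 and -1.55) and Mrpl37 / Cyb5rl (-0.28 and 1.79) far from equality.

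Overlapping genes set a limit on some values, since the sources used here do not say whether reads were counted by strand. The spans of 34 members overlap another gene, 29 of them one on the other strand and 6 one on the same strand. The highest member of each subunit is among them. Mrps25 overlaps Nr2c2 by 4770 bases (log2 fold change of Nr2c2 -0.15), and Mrpl14 overlaps Tmem63b by 584 bases (-0.69). Mrpl2, the lowest member, overlaps no gene. Mrpl9 overlaps Oaz3 by 598 bases, and Oaz3 was lower too, its counts being 111 and 103 against 10 and 10. Of the 43 members that overlap no gene, 17 were higher and 18 lower (81.4% called, beside 68.4% of all tested genes). The share over all genes that overlap no other gene was not computed. The median of these members was -0.14 in the large and 0.08 in the small subunit. The part of overlapping genes in the members' values was not tested. Of 5 pseudogenes that carry a member's name, 3 were tested and none passed, the highest value among them being 1.82 CPM.

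The fold changes of the 77 members were also set against level, composition and length. Log2 fold change had a Pearson r of -0.11 with mean FPKM, 0.05 with GC content and -0.07 with length of the longest transcript (Spearman rho -0.07, 0.06 and -0.10), given as descriptions of values from the same 4 libraries.

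Each of the 4 motifs occurred both in members that rose and in members that fell. RefSeq promoters of 300 bases, 250 before and 50 after the start, were matched for 68 members, and a member with several starts counted once. NRF1 letters were present in 13 of the 68 (19.1%), against 10.4% of tested protein coding genes and 5.19% of all genes with a promoter, each gene likewise counted once. The ETS letters were present in 25 (36.8%, against 17.9% and 8.86%), the YY1 letters in 11 (16.2%, against 5.22% and 2.38%) and GGGCGG in 34 (against 67.5% and 35.7%). Split by call, NRF1 letters were found in 4 of 27 higher and 6 of 23 lower members, and ETS letters in 8 and 9 of them. YY1 letters were found in 4 and 3, and GGGCGG in 14 and 9. No match was found for 13 members, Mrps25 among them, which says only that these letters are not in this window.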

How the data were processed

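Total RNA from bead-isolated P5 cortical astrocytes was sequenced on an Illumina HiSeq, and the authors deposited whole-number read counts per gene, not normalized, and FPKM values scaled to gene length and library size, for 29224 genes in 4 libraries. Per the labels, the submitters' processing notes name Bowtie2 2.2.3, TopHat2 2.0.12, HTSeq 0.6.0 and mm9; the strand setting is not given in the sources used here. The deposited coordinates differ from GENCODE M21 (GRCm38) for 28218 of 28799 matched genes, so the build is not settled, and they are printed as deposited. The authors' own columns of fold changes and p-values were not used.

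Counts were filtered with filterByExpr (16793 genes left), scaled by TMM and tested with edgeR 4.0.16 (quasi-likelihood, R 4.3.3) between 2 Ezh2 f/f and 2 Ezh2 cKO libraries, with Benjamini-Hochberg adjustment over all genes tested and calls at 0.05. CPM values use the TMM-scaled library sizes. SEs are the log2 fold change divided by the square root of F. Depth was 16273308 to 17522152 counts per library, at which 3 counts equal 0.171 to 0.184 CPM. The fits were tested on simulated data in which 200 genes changed. This is far fewer than the 11481 genes called here, so the simulation does not cover a difference this broad. Alternatives were DESeq2 1.42.0, its size factors, no filter, a mean of at least 50 counts, limma 3.58.1 on log2(FPKM + 1) and log2(FPKM + 0.1) with FPKM of at least 1 in 2 libraries, a replicate block, each library left out, and the subunits as structures assign them; regressing out GC content and length was added after seeing the data. Named were the 5 highest and 5 lowest fold changes and the 3 highest FPKM of each subunit, members of structural groups, members whose call or sign moved under an alternative, the 2 closest and 2 widest head-to-head pairs, and the 2 largest changes per direction of each pathway list; others were chosen after their values were seen. The members and lists were chosen with earlier results of these data known. Mrpl53 was not analysed here. Promoters are from RefSeq (GRCm38.p6).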

Additional observations from a re-analysis of the deposited data

How the results depend on the processing

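Of the 55 called members, 33 kept direction and call under every alternative, 22 lost the call under at least 1, and none changed sign. DESeq2 gave 16 higher and 15 lower members in the large and 8 and 9 in the small subunit. With each library left out in turn, the large subunit had 13 to 18 members higher and 9 to 15 lower with a median log2 fold change of -0.069 to 0.020, and the small subunit 8 to 9 higher and 5 to 11 lower with a median of -0.13 to -0.0022; a group left with 1 library is assumed to vary like the other. Both lower counts were lowest without Ezh2 cKO replicate 2. On log2(FPKM + 1) the medians were 0.020 (large) and 0.044 (small), and on log2(FPKM + 0.1) they were 0.021 and 0.046, FPKM not being scaled by TMM; with subunits as structures assign them the small subunit median was -0.10. Requiring 2-fold left 4 higher and 1 lower in the large and 5 higher and 0 lower in the small subunit. With GC content and length regressed out the counts were 17 and 19 in the large and 9 and 12 in the small subunit. In the small subunit 12 members were lower at an unadjusted p under 0.05.

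Signs turned only for members that did not pass the test. With DESeq2 and with its size factors in edgeR, Mrpl13 was at -0.010 and Mrpl20 at -0.0096. With GC content and length regressed out, Mrpl13 was at -0.17, Mrpl54 at 0.15, Mrps2 at -0.016 and Mrps16 at -0.041. With limma, Mrpl32 was at 0.013, Mrpl44 at 0.021 and Mrps18a at 0.046 with a pseudocount of 0.1, and at 0.011, 0.020 and 0.044 with 1. With libraries left out, values ran from -0.093 to 0.10 for Mrpl13, -0.081 to 0.094 for Mrpl20, -0.18 to 0.026 for Mrpl32, -0.16 to 0.041 for Mrpl44, -0.15 to 0.058 for Mrps18a, -0.081 to 0.22 for Mrps18b, -0.015 to 0.21 for Mrps11 and -0.011 to 0.15 for Mrpl12. The cause was not tested.

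The groups share replicate numbers, but nothing in the labels says that a number marks a shared litter or day; same-numbered libraries deviated together with r = 0.12. With the replicate number as a block, 19 large subunit members were higher and 15 lower, and 10 and 11 in the small subunit; Mrps10 lost the call and Mrps24 gained it. Depth limits the members with few counts: Mrpl33 and Mrps18c were at under 5 CPM in every library, and Mrpl14 in both Ezh2 f/f libraries.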
